A study of Mus musculus with 27 samples.

Results

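B cells carry a membrane-bound immunoglobulin as their antigen receptor, and plasma cells, which arise from B cells, release immunoglobulin as antibody. The 9 genes described here follow these cells in mouse liver. Cd79a and Cd79b encode the signalling chains of the B cell receptor, and Ms4a1 encodes CD20, a surface protein of B cells that plasma cells lose. Ighm, Igha and Ighg2b are the constant genes of the heavy chains of IgM, IgA and IgG2b, and Igkc is the constant gene of the kappa light chain. Jchain encodes the joining chain that links IgM and IgA molecules into polymers, and Mzb1 encodes a chaperone of the endoplasmic reticulum that assists antibody secretion. In the liver, IgA polymers are taken up from blood by the polymeric immunoglobulin receptor, encoded by Pigr, and in rodents this passes IgA into bile. The 9 genes were named as a list and matched by Ensembl identifier and symbol. All 9 were found among 51826 identifiers, and all 9 were among the 16428 genes with enough counts to be tested.

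Whole livers of wild-type BALB/C mice were sequenced as bulk RNA at 7 stages of a reproductive cycle, 1 library per animal and 27 animals in all. Dams were mated at an age of 10 to 12 weeks, litters were made equal in size, and the young were removed after 10 to 14 days of nursing. The groups were 4 nulliparous mice (NUL), 3 mice at lactation day 10 (LAC), 3, 4, 6 and 3 mice at 2, 4, 6 and 8 days after weaning (ID2, ID4, ID6 and ID8, named involution days in the labels), and 4 mice at 4 weeks after weaning (REG). All mice were of the same strain and labelled wild type, no treatment other than the stage is given, and animals of the stages were matched for age per the labels. Animals are named by stage and the number in the sample title, such as LAC_213. These numbers fall under 200 in 7 animals (all 3 of ID8, 2 of 3 in ID2 and 2 of 4 in ID4) and at 200 or over in the other 20. The labels do not say what the numbers mean.

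Libraries held 41120650 to 75664540 estimated counts, so that 1 count equalled 0.0120 to 0.0259 CPM (counts-per-million, the count scaled to a common library total after TMM scaling). Exocrine pancreas markers summed to 1686 CPM in ID2_31, 120 CPM in ID4_15 and 44.4 CPM in ID8_98b, and to at most 21.5 CPM in the other livers. Markers of lymph node stroma summed to 10.2 CPM in ID2_31 and to at most 4.34 CPM elsewhere. In whole liver, fewer cells of a type and less RNA per cell cannot be told apart.

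All 9 genes were low. Per length, the highest in NUL was Igkc with 23.8 ± 5.76 TPM (SD, n = 4), where TPM (transcripts-per-million) is scaled for gene length, followed by Ighm with 11.3 ± 3.46 TPM and Jchain with 2.50 ± 0.947 TPM. Cd79b had 1.56 ± 0.620 TPM, Igha 1.24 ± 0.349 TPM, Cd79a 0.955 ± 0.377 TPM and Mzb1 0.573 ± 0.153 TPM. Ms4a1 had 0.292 ± 0.110 TPM and Ighg2b 0.147 ± 0.0419 TPM, the lowest of the 9. In counts, Ighm ranged from 596 to 2213 per library and Ighg2b from 0 to 18, so the precision differs widely between them. The counts of all 9 were whole numbers in every library, so no fractional share of reads was assigned to them. The plot of CPM by animal shows every value.

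**Figure D1:**
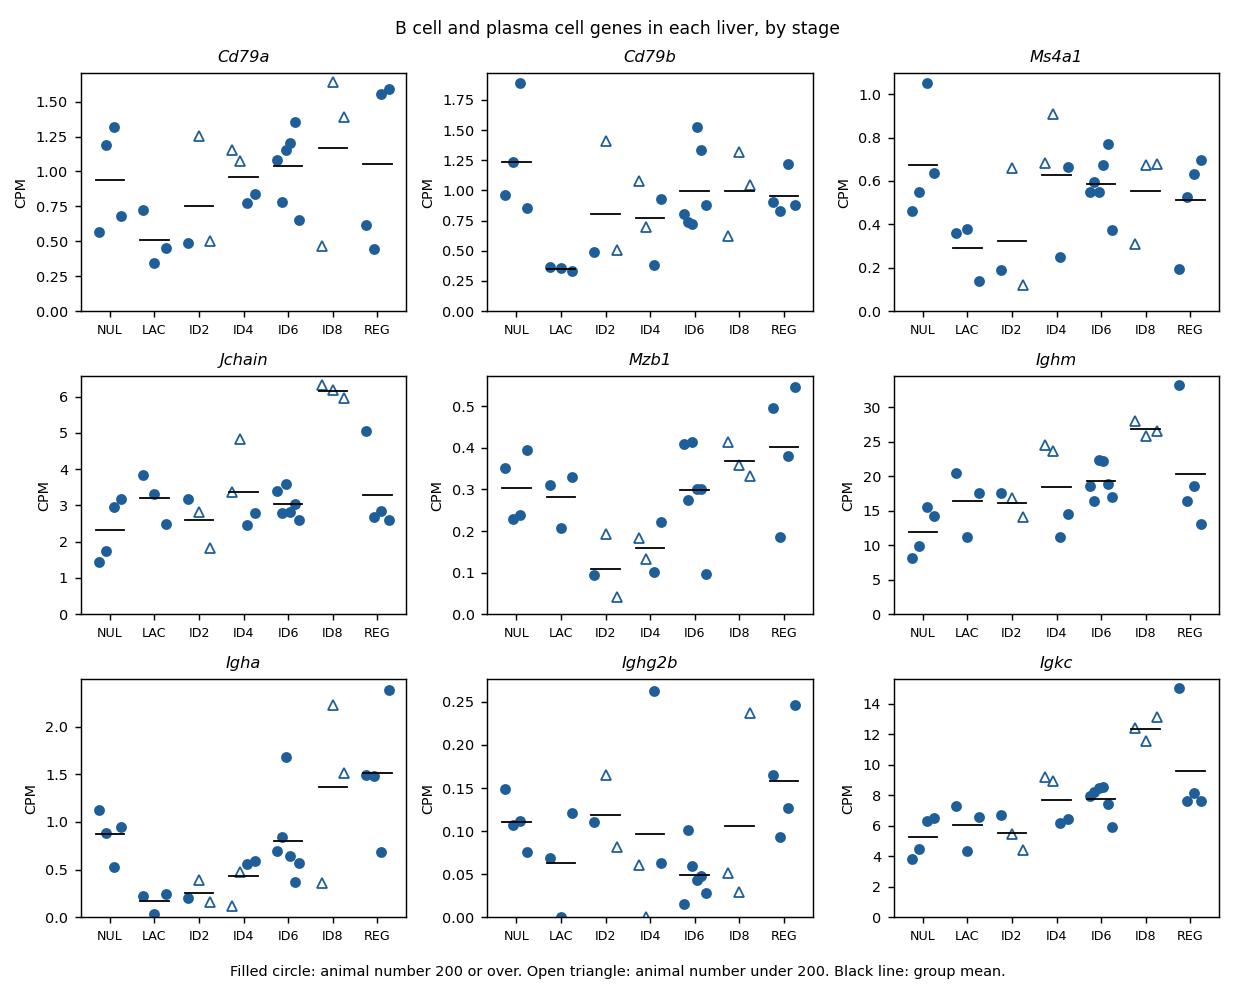
Level in CPM of each of the 9 genes in each of the 27 livers, by stage from nulliparous (NUL) through lactation (LAC) and the days after weaning (ID2 to ID8) to 4 weeks after weaning (REG). Each symbol is 1 animal, open triangles are animals numbered under 200, and black lines are group means. The LAC values of Cd79b lie between 0.329 and 0.362, below every NUL value, and the ID8 values of Jchain lie between 5.95 and 6.32, above every NUL value.

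Promoter sequences in the RefSeq table for GRCm38.p6 were matched for 2 of the 9 genes, Cd79a and Jchain, and both are shown. Each sequence runs from 250 bases before to 50 bases after the start that RefSeq gives, and distances below are counted from that start. The RefSeq start of Cd79a lies 116 bases downstream of the GENCODE start used for gene positions here, and that of Jchain 6 bases upstream. The sequences are printed 5′ to 3′ on the strand of the gene. Capitals mark the E-box CAGGTG, read on either strand.
Cd79a, chr7:24897247-24897546, plus strand: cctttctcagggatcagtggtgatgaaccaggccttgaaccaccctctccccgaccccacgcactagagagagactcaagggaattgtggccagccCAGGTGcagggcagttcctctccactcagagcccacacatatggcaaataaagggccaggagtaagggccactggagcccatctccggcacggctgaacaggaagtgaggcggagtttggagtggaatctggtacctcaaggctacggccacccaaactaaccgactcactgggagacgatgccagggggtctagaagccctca
Jchain, chr5:88527848-88528147, minus strand: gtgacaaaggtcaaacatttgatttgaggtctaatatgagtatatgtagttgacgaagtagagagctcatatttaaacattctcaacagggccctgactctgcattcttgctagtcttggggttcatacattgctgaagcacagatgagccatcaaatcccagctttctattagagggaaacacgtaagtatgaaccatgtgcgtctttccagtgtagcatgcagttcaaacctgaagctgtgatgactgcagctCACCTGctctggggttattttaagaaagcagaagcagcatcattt
The E-box starts 154 bases before the start of Cd79a, on the plus strand. In Jchain it starts 5 bases after the start, on the opposite strand. It occurs in 20.03% of the 27025 promoters of the table, so a match is frequent. The octamer ATGCAAAT, known from immunoglobulin promoters, was in neither window and occurs in 1.75% of promoters. The hexamer GGAAGT, the core bound by Ets factors, was in the Cd79a window, 54 bases before the start, and not in that of Jchain, and 24.1% of promoters hold it. Also searched on both strands were CCCNNGGG (EBF1), a longer EBF1 form that contains it, GAGGAA and AGGGGAA (PU.1), CAAGGGA (Ikaros-like), TATAAA, and ACGTGTCA, GACGTG and CCACG (XBP1 and related factors). Of the 12 motifs, 5 matched the Cd79a window and 1 matched that of Jchain. The additional matches in Cd79a were GAGGAA, 140 bases before the start (28.3% of promoters), CAAGGGA, 174 before (5.05%), and CCACG, 194 before (32.7%).

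Tested together over the 7 stages, 4 of the 9 genes differed at an adjusted p under 0.05 (edgeR quasi-likelihood F test with Benjamini-Hochberg adjustment over all genes tested), against a background of 27% of all genes. These were Igkc (adjusted p = 0.00129), Igha (0.00202), Jchain (0.00357) and Cd79b (0.0378). Mzb1 had an edgeR adjusted p of 0.0577 and Ighm of 0.0843. Mzb1 passed under 3 of the 9 alternatives that leave out no single library (smallest adjusted p = 0.0105, on log2(TPM + 0.1) with limma) and Ighm under 1, DESeq2 (0.0342). The unadjusted p was under 0.05 for 6 of the 9, against 38.9% of all genes. The call of Cd79b was lost in 5 of the 27 fits that left out 1 library (largest edgeR adjusted p = 0.129, without LAC_240), and on log2(TPM + 1) with limma its adjusted p was 0.0606. That of Jchain was lost with the title number range as a covariate (edgeR adjusted p = 0.0680).

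By mean, the B cell surface genes were lowest in lactation. For Ms4a1 this order rests on ID2_31, since the median of ID2 (0.190 CPM) was below that of LAC (0.362 CPM). In LAC against NUL, 2 of the 9 genes fell, Cd79b and Igha, against a background of 11.2% of all genes called in either direction and 6% called lower. None of the 9 rose, where 5.19% of all genes did. The unadjusted p was under 0.05 for 3 of the 9, against 23.6% of all genes. The median log2 fold change of the 9 genes was -0.79, and that of all genes tested -0.01. All animals of both groups had numbers of 200 or over.

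Cd79b (ENSMUSG00000040592, chromosome 11, 106311341 to 106314762 on GRCm38, minus strand) was at 0.962, 1.23, 1.89 and 0.851 CPM in the 4 NUL livers and at 0.362, 0.361 and 0.329 CPM in the 3 LAC livers. The LAC livers lay close together and below every NUL liver. The mean was 1.24 ± 0.467 CPM in NUL and 0.351 ± 0.0189 CPM in LAC (SD, n = 4 and 3), a fitted log2 change of -1.81 (SE 0.41, edgeR adjusted p = 0.00437). The call held in all 7 fits without 1 animal of the pair of groups (largest edgeR adjusted p = 0.0232) and under all 10 other alternatives (largest 0.0114). At ID2, Cd79b was at 0.491 CPM in ID2_224, 0.506 CPM in ID2_39 and 1.41 CPM in ID2_31, which also had the pancreas and lymph node stroma markers. ID2 against LAC gave a fitted log2 change of 1.20 (SE 0.43, edgeR adjusted p = 0.0560), and without ID2_31 the adjusted p was 0.528. From ID4 on the values were 0.380 to 1.08 CPM in ID4, 0.724 to 1.52 CPM in ID6, 0.621 to 1.32 CPM in ID8 and 0.833 to 1.22 CPM in REG, and each of these ranges overlapped that of NUL. By mean the order was NUL, ID6, ID8, REG, ID2, ID4 and LAC, and each neighbouring pair of ranges overlapped except ID4 and LAC.

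Cd79a (ENSMUSG00000003379, chromosome 7, 24897381 to 24902197, plus strand) was at 0.569, 1.19, 1.32 and 0.684 CPM in NUL and at 0.724, 0.344 and 0.450 CPM in LAC. The groups overlapped through LAC_200. The mean was 0.941 ± 0.370 CPM in NUL and 0.506 ± 0.196 CPM in LAC (SD, n = 4 and 3), and the gene passed the test in none of the 11 comparisons. Its group means at the other stages ran from 0.751 CPM in ID2 to 1.16 CPM in ID8, and the highest single liver was ID8_14 with 1.64 CPM. Ms4a1 (ENSMUSG00000024673, chromosome 19, 11249675 to 11266241, minus strand) was at 0.461, 0.549, 1.05 and 0.638 CPM in NUL and at 0.362, 0.378 and 0.139 CPM in LAC. The groups did not overlap, which held for 11.2% of all genes in this direction, and 3 of the 9 genes were lower in LAC without overlap. The fitted log2 change of Ms4a1 was -1.19 (SE 0.52) with an edgeR adjusted p of 0.147, so it did not pass the test. In ID2, Ms4a1 was at 0.190 CPM in ID2_224, 0.121 CPM in ID2_39 and 0.662 CPM in ID2_31. As for Cd79b, the liver with pancreas and lymph node stroma markers was the high one of ID2.

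Igha (ENSMUSG00000095079, chromosome 12, 113254830 to 113260236, minus strand) was at 1.12, 0.884, 0.525 and 0.942 CPM in NUL and at 0.224, 0.0344 and 0.242 CPM in LAC, where LAC_213 held only 2 counts. Every LAC liver was below every NUL liver. The mean was 0.869 ± 0.251 CPM in NUL and 0.167 ± 0.115 CPM in LAC (SD, n = 4 and 3), a fitted log2 change of -2.37 (SE 0.66, edgeR adjusted p = 0.0189). Without LAC_213 the adjusted p was 0.110, and on log2(TPM + 1) with limma it was 0.0540. Igha was at 0.206, 0.386 and 0.162 CPM in ID2, again below every NUL liver (8.39% of all genes were lower in ID2 than in NUL without overlap), with a fitted log2 change of -1.76 against NUL (SE 0.62) and an edgeR adjusted p of 0.125. The values were 0.122 to 0.584 CPM in ID4, 0.372 to 1.69 CPM in ID6, 0.362 to 2.23 CPM in ID8 and 0.681 to 2.38 CPM in REG. By mean, REG was highest with 1.51 ± 0.694 CPM (SD, n = 4), followed by ID8, NUL, ID6, ID4, ID2 and LAC, and each neighbouring pair in this order had overlapping ranges. The change from each stage to the next after LAC passed the test in no case.

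IgM, kappa and J chain transcripts did not share the low values of LAC. Ighm (ENSMUSG00000076617, chromosome 12, 113418558 to 113422730, minus strand) was at 8.08, 9.83, 15.5 and 14.3 CPM in NUL and at 20.5, 11.2 and 17.6 CPM in LAC. Igkc (ENSMUSG00000076609, chromosome 6, 70726435 to 70726966, plus strand) was at 3.83, 4.48, 6.30 and 6.52 CPM in NUL and at 7.26, 4.33 and 6.56 CPM in LAC. Jchain (ENSMUSG00000067149, chromosome 5, 88519809 to 88527891, minus strand) was at 1.45, 1.74, 2.94 and 3.18 CPM in NUL and at 3.85, 3.30 and 2.48 CPM in LAC. For all 3 genes the LAC mean was above the NUL mean, the groups overlapped and none passed the test, with edgeR adjusted p of 0.369, 0.671 and 0.300 in this order. The difference between these genes and Cd79b or Igha in their response to lactation was not itself tested.

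**Figure D2:**
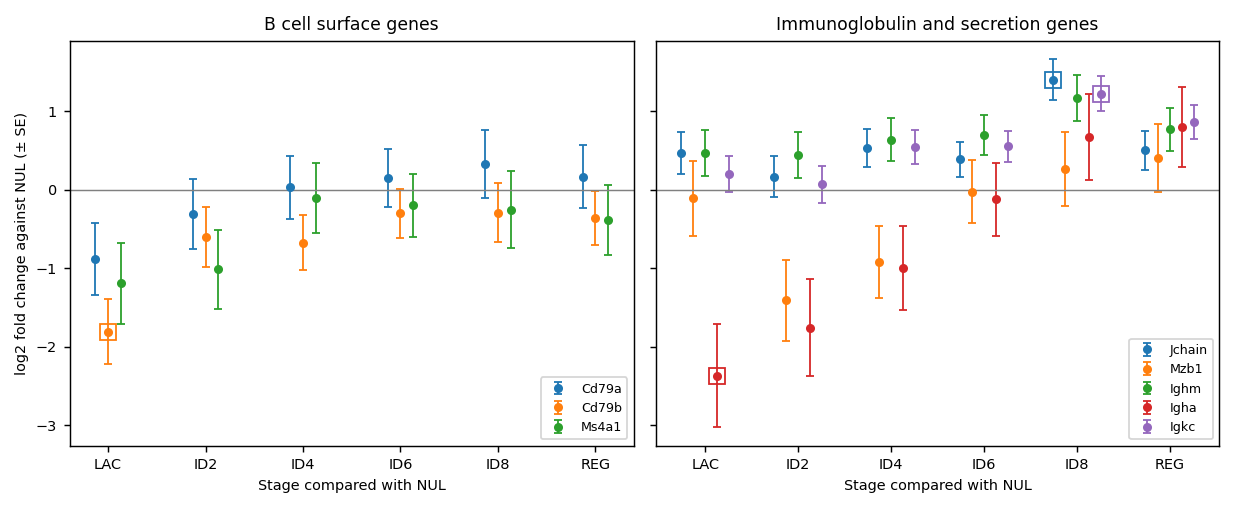
Fitted log2 fold change of each stage against NUL, with its standard error, for the 3 B cell surface genes (left) and for 5 immunoglobulin and secretion genes (right). Open squares mark adjusted p under 0.05 (edgeR), which are Cd79b at -1.81 and Igha at -2.37 in LAC and Jchain at 1.40 and Igkc at 1.22 in ID8. Ighg2b is left out because its counts reach only 0 to 18.

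The share of Igha in the counts of all heavy chain constant genes does not depend on the scaling of the library. It was 11.4%, 7.68%, 3.04% and 5.81% in the NUL livers and 1.06%, 0.301% and 1.32% in the LAC livers. The lowest NUL liver, NUL_226, had a 95% Wilson interval of 2.17% to 4.24%, and the highest LAC liver, LAC_240, had one of 0.790% to 2.21%, and the intervals overlap by a little. The share was 1.10% to 2.09% in ID2, 0.475% to 4.50% in ID4, 1.83% to 6.83% in ID6, 1.26% to 7.67% in ID8 and 3.32% to 14.2% in REG. No LAC or ID2 liver reached the lowest NUL or REG liver. Ighm took 95.9% to 98.05% of the heavy chain counts in LAC and 81.8% to 89.8% in NUL. The Ighm share was also wholly above NUL in ID2 (91.5% to 96.0%), ID4 (90.2% to 96.0%) and ID6 (90.4% to 93.5%). It overlapped NUL in ID8 (89.0% to 97.4%) and REG (78.2% to 93.2%). Ighd, the constant gene of IgD, which marks mature B cells that have not met antigen, was looked at after its values were seen. Its counts were 3.62 to 6.06 per 100 Ighm counts in NUL and 1.53 to 2.02 per 100 in LAC. Low ratios were not limited to LAC, since they were 0.919 to 3.58 per 100 in ID4 and 1.20 to 3.22 per 100 in ID8, also wholly below NUL, and 2.32 to 4.50 per 100 in ID6 and 1.17 to 5.33 per 100 in REG, overlapping NUL. In ID2 they were 1.89 per 100 in ID2_224, 2.01 per 100 in ID2_39 and 5.72 per 100 in ID2_31, again the liver that was high in Cd79b and Ms4a1. These intervals cover counting error only, and no test was made of the shares or ratios.

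**Figure D3:**
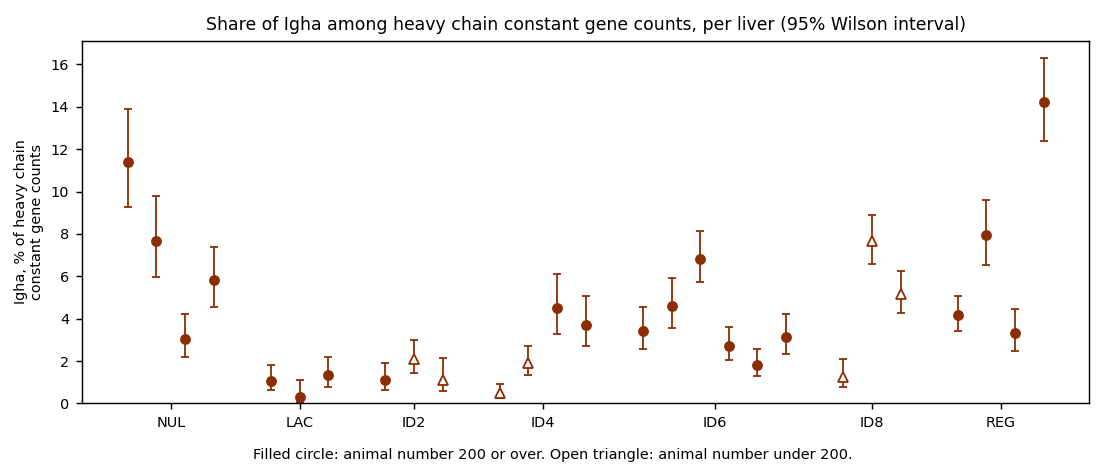
Igha as a percentage of the counts of all heavy chain constant genes in each liver, by stage, with the 95% Wilson interval. Symbols are animals, with open triangles for those numbered under 200. The LAC values of 0.301% to 1.32% and the ID2 values of 1.10% to 2.09% lie below the NUL values of 3.04% to 11.4%.

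Other genes of B cells were lower in LAC as well. Of a list of 21 tested genes of B cell receptor signalling and B cell identity, 6 fell and none rose in LAC against NUL, where 6% of all genes fell, with a median log2 fold change of -0.69 against -0.01 for all genes. Cd37, a tetraspanin of lymphocytes, fell from 1.90 ± 0.382 to 0.869 ± 0.339 CPM (SD, n = 4 and 3, log2 fold change -1.13, edgeR adjusted p = 0.00498). Btk, a kinase downstream of the receptor, fell with a fitted log2 change of -0.84 (edgeR adjusted p = 0.0110), and Ly86, which is also expressed by myeloid cells, with -0.62 (0.0477). Also lower, and named after their values were seen, were Spib, a transcription factor of B cells and plasmacytoid dendritic cells (-2.10, 0.00981), and Fcer2a, the low-affinity IgE receptor (-2.10, 0.0474). Bank1, a scaffold of B cell signalling, differed among the stages (edgeR adjusted p = 0.0123) with 1.22 to 2.10 CPM in LAC and 2.17 to 2.59 CPM in NUL. Pax5, the transcription factor that maintains B cell identity, was at 0.136 to 0.732 CPM in NUL and 0.0860 to 0.277 CPM in LAC, overlapping, and passed no test. Between ID2 and LAC, 3 of the 21 were higher in ID2, a share near the 16.1% of all genes called in that comparison. In the comparisons of ID2, ID4, ID6, ID8 and REG with NUL the edgeR test called 0 of the 21, with 1, 1, 1, 0 and 0 at an unadjusted p under 0.05.

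Several lists of leukocyte markers were lower at this stage too, to be read against the 6% of all genes that were called lower in LAC. All 7 pan-leukocyte genes fell in LAC against NUL, and their summed level was 25.6 to 35.2 CPM in LAC against 44.6 to 52.1 CPM in NUL. Of 12 T cell genes, 4 fell and none rose, with sums of 2.51 to 3.28 CPM in LAC and 5.30 to 7.57 CPM in NUL. Of 10 Kupffer cell genes, the resident macrophages of the liver, 8 fell and none rose, with sums of 323 to 454 CPM in LAC and 492 to 619 CPM in NUL. Of 8 neutrophil genes, edgeR called 0, with 0 at an unadjusted p under 0.05 and a median log2 fold change of -0.31. Their sums of 1.96 to 3.48 CPM in LAC overlapped the 1.60 to 5.29 CPM of NUL. Whether they differed from the other lists was not tested. Of 6 tested genes of plasmacytoid dendritic cells, 1 rose and 1 fell, 4 had an unadjusted p under 0.05, and the median log2 fold change was -0.86. The summed level of this list is nearly all Bst2, an interferon-induced gene of many cell types (means of 228 CPM in LAC and 180.3 CPM in NUL), and does not follow the median. Among 6 hepatocyte genes, 2 rose and 1 fell. Alb, encoding serum albumin, rose from a mean of 89786 to 177113 CPM (log2 fold change 0.98, edgeR adjusted p = 5.48e-05) and made up most of the list's sum, while Cyp2e1, a cytochrome P450, fell from 4184 to 1495 CPM (-1.49, 2.57e-05). The part of these levels in the fall of Cd79b and Igha was not tested. Counted against Igkc in the same liver, Cd79b was at 13.1 to 30.1 per 100 Igkc counts in NUL and 4.99 to 8.33 in LAC. The ratio was also wholly below NUL in ID8, at 5.02 to 11.4, where Igkc was high and Cd79b overlapped NUL, so it follows both genes. At the other stages the ratio overlapped NUL, in ID4 (6.13 to 14.4), ID6 (8.57 to 17.9) and REG (6.0 to 15.01) only through NUL_227 with 13.1. The other NUL livers had 25.1 to 30.1. In ID2 the ratio ran from 7.36 to 25.8, with ID2_31 the highest.

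After weaning, Jchain, Igkc and Ighm had their highest mean at ID8, while Igha and Ighg2b had theirs in REG. In ID8 against NUL, 2 of the 9 genes rose, Jchain and Igkc, against a background of 0.499% of all genes called in either direction and 0.359% called higher. None of the 9 fell, where 0.14% of all genes did. Jchain was at 6.32, 6.18 and 5.95 CPM in the 3 ID8 livers, with a mean of 6.15 ± 0.184 CPM (SD, n = 3) against 2.33 ± 0.860 CPM in NUL (n = 4), a fitted log2 change of 1.40 (SE 0.26, edgeR adjusted p = 0.0101). Every ID8 liver was above every liver of all other stages, of which the highest was REG_203 with 5.05 CPM. Igkc was at 12.4, 11.6 and 13.1 CPM in ID8, with a mean of 12.3 ± 0.759 CPM against 5.28 ± 1.33 CPM in NUL, a fitted log2 change of 1.22 (SE 0.23, edgeR adjusted p = 0.0101). The ID8 livers were above all other livers except REG_203, which had 15.03 CPM. Both calls held in all 7 fits without 1 animal of the pair of groups, with largest edgeR adjusted p of 0.0423 and 0.0436 without ID8_101b. The call of Jchain was lost with only the 2 groups in the fit (edgeR adjusted p = 0.0568, log2 change 1.39), and that of Igkc without the 3 livers with raised pancreas markers (0.0535, log2 change 1.18).

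Ighm was at 28.1, 25.9 and 26.6 CPM in ID8, above every NUL liver, with a fitted log2 change of 1.17 (SE 0.29) and an edgeR adjusted p of 0.0778 that missed the threshold. DESeq2 called it, with an adjusted p of 0.0153, and over the alternatives other than leaving out single libraries the adjusted p ran from this value to 0.528. In all, 3 of the 9 genes were higher in ID8 than in NUL without overlap, against 5.83% of all genes. Against ID6, 1 of the 9 genes rose in ID8, with a background of 4.12% in either direction and 2.37% higher. This was Jchain, with 2.6 to 3.59 CPM in the 6 ID6 livers (median 2.94 CPM), a fitted log2 change of 1.02 (SE 0.23, edgeR adjusted p = 0.0144). That call was lost without ID8_101b (0.0768) and also without ID8_98b, while the fitted log2 change was 0.97 to 1.07 over the fits without 1 animal. The ratio of Jchain to Ighm counts was 22.3 to 23.9 per 100 in ID8, 12.8 to 18.1 per 100 in ID6, 17.7 to 22.2 per 100 in NUL and 13.7 to 22.05 per 100 in ID4. It did not set ID8 apart, since LAC ran from 14.1 to 29.4 per 100.

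The stage ID8 coincided with the animal numbers under 200, and whether the ID8 changes pass the test depends on how these numbers are treated. With the number range as a covariate, estimated from the ID2 and ID4 animals alone, the edgeR adjusted p of ID8 against NUL was 0.277 for Jchain and 0.275 for Igkc, and that of Jchain against ID6 was 0.288. The fitted log2 changes against NUL in that fit were 1.21 for Jchain and 1.09 for Igkc, against 1.40 and 1.22 without the covariate. That of Ighm was 0.72 against 1.17, and that of Jchain against ID6 was 0.82 against 1.02. In ID4 the pair of animals numbered under 200 was higher than the other pair in these genes. Ighm was at 24.6 and 23.7 CPM in ID4_13 and ID4_15 and at 11.1 and 14.6 CPM in ID4_211 and ID4_215. Igkc was at 9.17 and 8.95 CPM against 6.20 and 6.46 CPM, and Jchain at 3.36 and 4.82 CPM against 2.46 and 2.79 CPM, in the same order. In ID2 the opposite order held, with Igkc at 5.46 and 4.43 CPM in ID2_31 and ID2_39 and at 6.67 CPM in ID2_224. Among the 7 animals numbered under 200, the 3 ID8 livers had Jchain at 5.95 to 6.32 CPM and Igkc at 11.6 to 13.1 CPM. The 4 ID2 and ID4 livers of this range had Jchain at 1.82 to 4.82 CPM and Igkc at 4.43 to 9.17 CPM. Every ID8 animal is numbered under 200, so stage and number range cannot be told apart in ID8.

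Transcripts of blood moved at this stage too. Of 6 red blood cell genes, mainly those of haemoglobin, 4 fell in ID8 against NUL, where 0.14% of all genes fell. They summed to 19.9 to 35.0 CPM in ID8, 53.1 to 264 CPM in ID6 and 335 to 713 CPM in NUL. Their part in the ID8 levels of Jchain and Igkc was not tested. Pan-leukocyte genes summed to 44.5 to 56.8 CPM in ID8, overlapping the 44.6 to 52.1 CPM of NUL. Cd79b, at 0.621 to 1.32 CPM, and Ms4a1, at 0.311 to 0.679 CPM, overlapped NUL in ID8 as well. Among 6 other immunoglobulin constant genes tested, Iglc2, the constant gene of a lambda light chain, rose at ID8 and none fell, where 0.359% of all genes rose. It was at 1.97, 2.13 and 1.61 CPM in ID8 and at 0.412 to 0.843 CPM in NUL, a fitted log2 change of 1.85 (SE 0.35, edgeR adjusted p = 0.0101). Lambda took 15.2% to 19.4% of the light chain constant counts in ID8 and 9.49% to 18.7% in NUL, and these ranges overlapped.

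At the other stages no member passed the edgeR test against NUL. This was so in ID2, ID4, ID6 and REG, where backgrounds were 3.24%, 4.25%, 1.08% and 0.0852% of all genes. The unadjusted p was under 0.05 for 2, 3, 2 and 2 of the 9 genes in this order, against 16.9%, 18.6%, 11.9% and 7.17% of all genes, and DESeq2 called 1, 0, 0 and 1. Between successive stages, no member was called by edgeR in ID2 against LAC, ID4 against ID2, ID6 against ID4 or REG against ID8, where 16.1%, 1.49%, 8.53% and 0.0487% of all genes were. The unadjusted p was under 0.05 for 2, 0, 1 and 1 of the 9, against 29.1%, 13.9%, 22.9% and 9.02% of all genes, and DESeq2 called 1, 0, 0 and 0. In REG, Igkc was at 15.03, 7.64, 8.13 and 7.62 CPM, above every NUL liver (2.03% of all genes were higher in REG without overlap), with a fitted log2 change of 0.86 (SE 0.21) and an edgeR adjusted p of 0.131. The first of these, REG_203, stood apart, and without it the adjusted p was 0.575.

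Mzb1 (ENSMUSG00000024353, chromosome 18, 35647267 to 35649367, minus strand) had 2 to 40 counts per liver and its lowest mean in ID2. It was at 0.0951, 0.193 and 0.0405 CPM in ID2, below every NUL liver, which had 0.352, 0.229, 0.239 and 0.395 CPM. The log2 fold change of ID2 against NUL was -1.41 (SE 0.52) with an edgeR adjusted p of 0.141. It ran from -2.10 to -1.06 in the fits without 1 animal of the pair of groups. In ID4 it was at 0.102 to 0.221 CPM, also below every NUL liver (log2 fold change -0.92, SE 0.46, edgeR adjusted p = 0.275). The means were 0.110 CPM in ID2, 0.159 CPM in ID4, 0.299 CPM in ID6, 0.368 CPM in ID8 and 0.402 CPM in REG, and no step between successive stages passed the test. Ighg2b (ENSMUSG00000076613, chromosome 12, 113302965 to 113307933, minus strand) had a median of 5 counts per liver, and a count of 0 in LAC_213 and ID4_15. A count of 0 allows up to 3 counts. Its range overlapped that of NUL at every other stage, and differences in it were not detectable at this depth.

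Across the 27 livers the genes formed 2 sets by their correlation of log2 CPM, given here as a description because stages, scaling and number ranges are shared by the points. Cd79a, Cd79b and Ms4a1 correlated with r of 0.71 to 0.72 among themselves. Jchain, Ighm and Igkc correlated with r of 0.84 to 0.90. Between these sets r ran from 0.02, for Cd79b with Jchain, to 0.30, for Cd79a with Igkc. Igha had an r of 0.12 with Jchain and with Ighm, but of 0.39 with Igkc. Its r was 0.51 with Mzb1, 0.46 with Cd79a and with Cd79b, 0.37 with Ighg2b and 0.35 with Ms4a1.

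**Figure D4:**
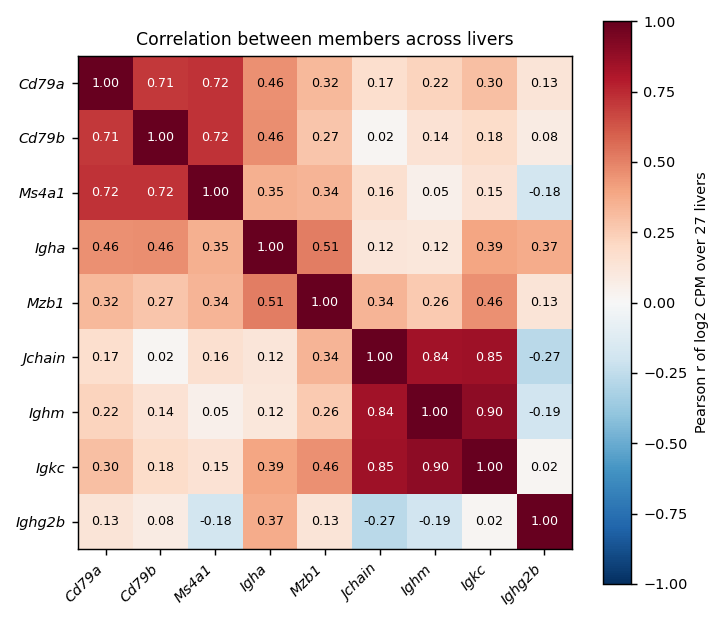
Pearson correlation of log2 CPM between the 9 genes over the 27 livers, as a colour scale from -1 to 1 with the value in each cell. The B cell surface genes Cd79a, Cd79b and Ms4a1 form one block of 0.71 to 0.72, and Jchain, Ighm and Igkc form another of 0.84 to 0.90.

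Among 12032 other genes of sufficient level, those most like Cd79a across the livers included Glipr2 (r = 0.75), Zfp984 (0.75), Lsp1 (0.74), Rnf125 (0.73), Atxn3 (0.71) and Apobec1 (0.71). Lsp1 encodes a cytoskeletal protein of leukocytes. For Jchain the correlations were weaker, led by Asnsd1 (0.64), Cops2 (0.61), Eif3e (0.60) and Rpsa-ps10 (0.60), followed by Gm10288, Fkbp9, Iqca and Plin3 with 0.58 to 0.56.

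Of 17 tested genes of plasma cell identity and secretion, 9 differed over the stages (27% of all genes did), and those called did not share 1 direction. In LAC against NUL, 2 rose and 2 fell, where 11.2% of all genes were called. In ID2 against LAC, 2 were higher and 5 lower in ID2, where 16.1% of all genes were called. In ID6 against ID4, 3 rose and 1 fell (8.53% of all genes), and in ID8 against ID6, 1 rose and 3 fell (4.12%). Against NUL, ID2 and ID4 each gave 1 higher gene and ID8 gave 1 lower (backgrounds of 3.24%, 4.25% and 0.499%). The higher gene was Sdc1, encoding syndecan-1 (CD138), a surface marker of plasma cells that hepatocytes also express, with the smallest p of the list over the stages (edgeR adjusted p = 1.52e-07). It was at 355 ± 21.1 CPM in NUL, 371 ± 34.0 CPM in LAC, 731 ± 115 CPM in ID2 and 481 ± 39.6 CPM in ID4 (SD, n = 4, 3, 3 and 4). The log2 fold change against NUL was 1.04 in ID2 (SE 0.12, edgeR adjusted p = 3.91e-05) and 0.44 in ID4 (SE 0.11, 0.0231). The lower gene in ID8, Creb3l2, a transcription factor of the secretory pathway named after its values were seen, had a log2 fold change of -0.80 (0.0453). In LAC, Fkbp11, a folding enzyme of the secretory pathway, rose from 4.22 ± 0.665 to 13.1 ± 0.213 CPM (SD, n = 4 and 3, log2 fold change 1.63, edgeR adjusted p = 3.22e-05), and Pim2, a survival kinase, rose with a fitted log2 change of 0.95 (0.00313). Prdm1, which encodes BLIMP-1, the transcription factor that drives plasma cell formation and is also found in other liver cells, was at 0.583, 0.579, 0.557 and 0.304 CPM in NUL and at 0.207, 0.172 and 0.190 CPM in LAC (log2 fold change -1.41, SE 0.34, edgeR adjusted p = 0.00727). Ell2, an elongation factor used for secretory immunoglobulin transcripts and named after its values were seen, fell with a fitted log2 change of -0.31 (edgeR adjusted p = 0.00962). Hepatocytes, which secrete plasma proteins, also express genes of this list. It summed to 1784 to 2832 CPM in the livers, and the 9 genes above to 17.0 to 57.2 CPM. Tnfrsf17, encoding the plasma cell receptor BCMA and also chosen after its values were seen, was at 0 to 0.103 CPM in all livers and too low to be tested.

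Of 8 genes of early B cells, 4 had enough counts to be tested, and 1 was called in LAC against NUL, where 11.2% of all genes were. Dntt, encoding the terminal transferase that adds bases to immunoglobulin and T cell receptor joints in lymphocyte precursors, was at 12.0, 10.7 and 6.44 CPM in LAC and at 0.461, 1.02, 0.398 and 0.532 CPM in NUL. The log2 fold change was 4.01 (SE 0.42, edgeR adjusted p = 2.00e-06). Dntt was also higher than in NUL in ID2 (2.62, edgeR adjusted p = 0.000579) and in ID8 (2.08, 0.0180), and it fell between ID2 and ID4 (-2.36, 0.00175). Other genes of precursors were looked at after seeing these values. Rag1, which cuts the gene segments, was at 0 CPM in all livers but 1, which had 0.0158 CPM. Rag2, its partner, was at 0 CPM in all livers, and Igll1, a surrogate light chain gene, was at 0 to 0.0407 CPM. The other tested genes of the list were low but present and passed no test between LAC and NUL. Group means in NUL and LAC were 0.154 and 0.115 CPM for Vpreb1, 0.292 and 0.597 CPM for Vpreb3, and 0.232 and 0.0805 CPM for Il7r, the receptor chain for interleukin 7, which T cells also carry (edgeR adjusted p = 0.773, 0.287 and 0.0906).

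Of 18 tested genes for homing, survival and antibody transport, 6 fell and none rose in LAC, where 6% of all genes fell. Pigr was at 1028, 833, 838 and 1061 CPM in NUL and at 664, 607 and 783 CPM in LAC, below every NUL liver (log2 fold change -0.46, SE 0.12, edgeR adjusted p = 0.0102). Pigr then rose between LAC and ID2 (0.68, edgeR adjusted p = 0.000571), and at ID4 it was at 1148 to 1562 CPM, above NUL (0.56, 0.00208). The stages of lowest Pigr and lowest Igha, by mean, were the same. In ID2, where Pigr had risen, Igha was at 0.162 to 0.386 CPM and overlapped LAC. In ID4, where Pigr was highest, Igha was at 0.122 to 0.584 CPM. A link between Pigr and Igha was not tested. Vcam1, an adhesion molecule for lymphocytes on endothelium and macrophages, fell in LAC (-0.66, edgeR adjusted p = 0.00291) and was higher in ID4 than in NUL (0.65, 0.00299). Fcgr2b, the inhibitory Fc receptor carried by sinusoidal endothelium and B cells, fell in LAC (-0.48, 0.00150). The chemokines Cxcl12 (-0.38, 0.0189) and Ccl21a (-1.65, 0.0414), both named after their values were seen, fell in LAC as well. The last of the 6 was Fcer1g, the shared chain of several Fc receptors (-0.58, 0.0357).

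**Figure D5:**
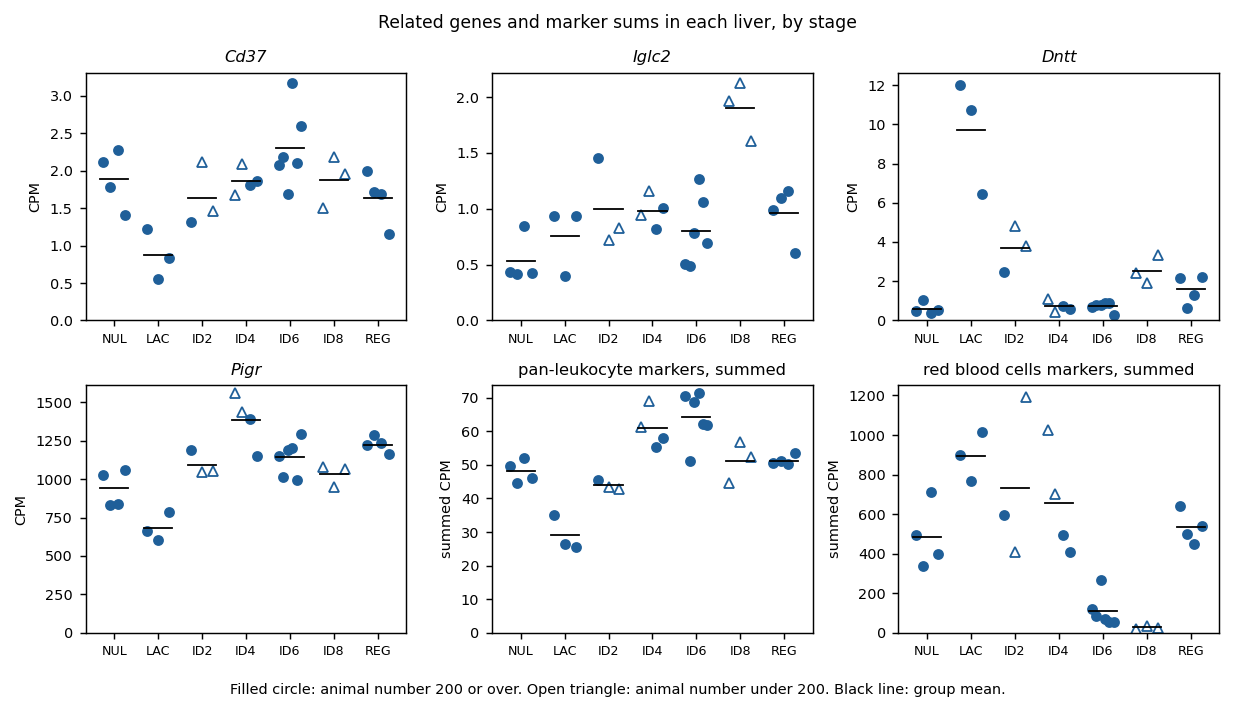
Level in CPM of Cd37, Iglc2, Dntt and Pigr, and summed CPM of the pan-leukocyte and red blood cell genes, in each of the 27 livers by stage, with group means as black lines and animals numbered under 200 as open triangles. Dntt reaches 6.44 to 12.0 in LAC, the pan-leukocyte sum is lowest in LAC at 25.6 to 35.2, and the red blood cell sum is lowest in ID8 at 19.9 to 35.0.

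Variable genes of the antibody chains were spread thinly. Of the variable genes in the tables, 30 had enough counts to be tested. Heavy chain variable genes gave 44 to 148 counts per liver over 13 to 34 genes, and kappa variable genes 98 to 507 counts over 31 to 57 genes. The leading heavy gene took 11.5% to 26.9% of the heavy counts of a liver, and the leading kappa gene 5.48% to 26.9% of the kappa counts. Ighv2-9 was the leading heavy gene in 10 of the 27 livers and Igkv1-117 the leading kappa gene in 10. The highest kappa share was that of Igkv6-15 in NUL_227, with 26.9%, and in all other livers the leading kappa gene took at most 14.2%. In no liver did 1 variable gene take most of the heavy or kappa counts. The annotation follows the C57BL/6J genome and the mice were BALB/C, so variable and constant genes that differ between the strains may be miscounted, and Ighg2a, a BALB/C constant gene name, was not analysed here.

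In the test over all stages, 2 of the 30 variable genes passed, a smaller share than the 27% of all genes. These were Iglv1 (edgeR adjusted p = 0.0285) and Igkv11-125 (0.0111), both picked out after their values were seen. Iglv1 was at 0.181 ± 0.0778 CPM in NUL, 0.489 ± 0.0201 CPM in LAC and 0.762 ± 0.351 CPM in ID8 (SD, n = 4, 3 and 3), and in no single comparison did it pass. Igkv11-125 had 5, 11 and 17 counts in the ID8 livers and 0, 0, 0 and 1 in the NUL livers. In ID4 it had 9 and 18 counts in the animals numbered under 200 and 0 and 0 in the other pair, and the ID2 animals numbered under 200 had 0 and 0.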

How the data were processed

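The 27 libraries were made from total RNA of whole liver with the NEBNext Ultra RNA kit, per the labels' protocols. The deposited tables hold the expected count of each gene, the authors' estimate from RSEM, not normalised between libraries. They also hold TPM, which the authors scaled for length and to the same total in every library, per the file headers, and the effective length of each gene. The submitters' processing notes name STAR 2.6.1a, RSEM 1.3.1 and the builds mm10 and GRCm38. The use of strand is not given in the sources used here, so overlapping genes on opposite strands cannot be told apart. The authors' readme lists 2 runs for 16 of the libraries and 1 run for the other 11.

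Identifiers were matched to GENCODE M21 (GRCm38), in which 51633 of 51826 were found and 193 were not. For testing, each expected count was rounded to an integer, and edgeR 4.0.16 in R 4.3.3 was used (filterByExpr by stage, TMM, robust glmQLFit, glmQLFTest). All 27 libraries entered 1 fit of the 7 stages over 16428 genes, with 11 two-sided comparisons and a joint test. A call is an adjusted p (Benjamini-Hochberg, per comparison) under 0.05. Labels make each library a separate animal, and p-values set differences between stage means against the spread among animals. That spread was estimated over all 7 stages, with information shared across genes. The pair of libraries in 1 stage that were most alike still differed beyond sampling noise (chi-square per gene 41.3). The scripts were tested on simulated counts. Correlations used log2 CPM with a prior count of 2.

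The 9 genes and the other lists were chosen with earlier results of these data known. The naming rule took all 9, up to 4 genes of each other list with the smallest p among those called in the joint test, the genes Pigr, Prdm1 and Pax5, the 8 genes most like Cd79a and Jchain, and the leading V genes. Alternatives were DESeq2 1.42.0, RLE scaling, no filter, limma 3.58.1 on log2(TPM + 1) and log2(TPM + 0.1), only the 2 groups compared, the title number range or the number of runs as a covariate, a threshold of 0.01, and leaving out each library. One more, leaving out the 3 libraries with raised pancreas markers, was chosen after seeing the data. Count intervals reflect counting error alone. Some genes that the rule names are not reported here.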

Additional observations from a re-analysis of the deposited data

Results flagged for a closer look

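Of 36 groups of 4 to 6 livers examined, 3 held a liver far from the others by Dixon's criterion, which flags about 1 group in 20 by chance. REG_203 had Jchain at 5.05 CPM, where the other REG livers had 2.6 to 2.84 CPM, and Igkc at 15.03 CPM, where the others had 7.62 to 8.13 CPM. The same liver had the highest Ighm of all 27, 33.3 CPM, and the lowest Ms4a1 of REG, 0.195 CPM. ID6_216 had Igha at 1.69 CPM, where the other ID6 livers had 0.372 to 0.839 CPM, while its Jchain of 3.59 CPM and Ighm of 22.3 CPM were also the highest of ID6.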

How the results depend on the processing

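No paired analysis was possible because no replicate number occurs in more than 1 stage. Of the counts of calls and the single-gene changes recomputed, none changed direction under an alternative. In LAC against NUL, where 2 of the 9 were called in the report, the number was 1 at an adjusted p under 0.01 and 1 on log2(TPM + 1) with limma, and 1 to 2 without single animals. In ID8 against NUL, also 2, it was 3 with DESeq2 (Jchain, Igkc and Ighm), 0 at an adjusted p under 0.01, 0 with the title number range as covariate, 1 with only the 2 groups compared and 1 without the 3 libraries with raised pancreas markers, and it stayed at 2 without single animals. In ID8 against ID6, where 1 was called, it was 2 with DESeq2, 2 with the number of runs as covariate, 3 with only the 2 groups compared, 0 at an adjusted p under 0.01 and 0 with the title number range, and 0 to 1 without single animals. In comparisons with no call, DESeq2 gave 1 in ID2 against NUL, 1 in REG against NUL and 1 in ID2 against LAC. With only the 2 groups compared, ID2 against NUL gave 1. Without single animals, ID2 against LAC gave 0 to 1, and the joint test gave 3 to 5 in place of 4. The joint test gave 6 with DESeq2, 5 on log2(TPM + 0.1) with limma, 3 at an adjusted p under 0.01, 3 with the title number range and 4 under the other alternatives. The cause of these differences was not tested. The other comparisons gave 0 under every alternative. Low counts limit Ighg2b (0 to 18 per liver), Mzb1 (2 to 40) and Ms4a1 (6 to 66), and also Igha, which had 2 to 174.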

Other observations

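Lists of other immune and vascular genes are given next with edgeR adjusted p, where 11.2% of all genes were called in LAC against NUL and 6% were called lower. Of 6 NK cell genes tested, 1 fell in LAC against NUL, Gzma, a granzyme of cytotoxic cells, from 0.829 to 0.322 CPM (log2 fold change -1.36, adjusted p = 0.00786). Of 6 genes of plasmacytoid dendritic cells, Siglech, their surface lectin, fell in LAC (-2.74, 0.0321), and Ly6d, which is also found on early B cells, rose (2.06, 0.0159), from a mean of 0.826 to 3.43 CPM. Of 6 genes of germinal centres and class switching, Apex1, a general DNA repair gene, rose in LAC (0.39, 0.0156), and Gcsam, a germinal centre signalling gene chosen after its values were seen, fell (-2.53, 0.0429). Of 6 genes of liver sinusoidal endothelium, 1 fell in LAC, and 4 were higher in ID2 than in LAC, where 16.1% of all genes were called. Of 4 tested genes of lymph node stroma, 1 fell, Ccl21a. Kupffer cell genes were higher than in NUL for 6 of 10 in ID4 and 5 of 10 in ID6, against 4.25% and 1.08% of all genes called, stages at which none of the 9 B cell and plasma cell genes passed the test. Timd4, a receptor of resident macrophages, was at 7.86 CPM in NUL, 5.0 CPM in LAC and 12.0 CPM in ID4 on average.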
